A study of Bos taurus with 15 samples.

Results

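Genes of transferrin and iron handling were followed in subcutaneous white adipose tissue of the dewlap of primiparous Holstein dairy cows around calving. The genes were chosen from a list of 10 symbols, selected on earlier results of these same data, and 7 of them were found among the 13896 genes of the deposited tables: TF, TFRC, FTH1, FTL, SLC40A1, SLC11A2 and HMOX1. CP, IREB2 and STEAP4 were not analysed here. The levels and fold changes of the 7 genes are therefore given as a description. Calls of the 7 genes in the fit across all genes are counted beside the share of all genes called, with no p-value, and support nothing.

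The 15 libraries fall into 5 groups of 3. One group was sampled at -4 weeks peripartum (wkpp), one month before calving and before the diets. Cows with severe negative energy balance (SNEB), which received the low energy (LE) diet in the labels, were sampled at 1 and 16 wkpp, and cows with moderate negative energy balance (MNEB), which received the high energy (HE) diet, at the same times. All cows were primiparous, and diet and energy balance cannot be told apart. Within each energy balance group, the cows with the most extreme balance just after calving were kept for sequencing, so the groups are extremes of a larger herd. The libraries at 1 and 16 wkpp of a group come from the same cows, and which cows gave those at -4 wkpp is not given in the sources used here.

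The deposited tables give means over 6 libraries, not values per library. The whole reads of each library were reconstructed from these means, as described with the processing, so that each group could be shown with its spread. The group of a library follows from the tables it enters, but its identity within the group does not, and the numbers 1 to 3 only order the libraries of a group by their exon reads. A normalized exon count is the reads on the exons of a gene divided by a size factor of the library, on one scale for all 15 libraries, and an entire gene count also takes the reads on introns. Levels are compared within a gene only.

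Iron circulates in plasma bound to transferrin (TF), which is made mostly by the liver and also by adipose and other tissues. Cells take it up through the transferrin receptor (TFRC), carry it out of endosomes with the divalent metal transporter (SLC11A2), store it in ferritin, built of a heavy (FTH1) and a light (FTL) chain, and release it through ferroportin (SLC40A1). Haem oxygenase 1 (HMOX1) frees iron from haem, and macrophages of tissues are known for this recycling. The mRNAs of TFRC and of ferritin are controlled by iron regulatory proteins, one of which is ACO1.

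The libraries differed with the energy balance group in the reads that fell on genes, which is what depth means here. The 6 MNEB libraries held 2028309 to 7518057 exon reads on genes and the 9 others 8076601 to 14772310, and the resolved synthetic spike-in RNAs took 14.5 to 27.5% of the exon reads in MNEB and 0.735 to 3.83% elsewhere. These differences cannot be told apart from energy balance. Marker genes also differed. The summed normalized exon count of 3 fibroblast markers (DCN, LUM and PDGFRA) lay between 6476 and 22021 in MNEB libraries and between 33890 and 76086 in the others, while TNNT3, a troponin of fast skeletal muscle, lay between 1170 and 3941 in MNEB and between 54.1 and 338 in the others. TNNT3 made up 97.9% of the counts of the 6 skeletal muscle markers, and the sum of the other 5 was at most 157 in MNEB and at most 23.4 elsewhere, with overlapping ranges. The sum of 7 adipocyte markers lay between 49502 and 59411 at -4 wkpp, 72264 and 88051 in SNEB at 1 wkpp, 42090 and 48586 in SNEB at 16 wkpp, 19839 and 56792 in MNEB at 1 wkpp, and 10163 and 40812 in MNEB at 16 wkpp, and ADIPOQ was not analysed here. The part of these differences in the levels of the iron genes was not tested.

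TF, the carrier itself, had the widest range of the 7 genes. Its normalized exon count was 3862, 6226 and 3445 in the libraries at -4 wkpp. It was 3025, 204 and 169.8 in SNEB at 1 wkpp, and 659.8, 201 and 2128 in SNEB at 16 wkpp. In MNEB it was 95.9, 78.4 and 95.6 at 1 wkpp, and 463, 61.7 and 171 at 16 wkpp. All libraries at -4 wkpp thus lay above all 12 libraries after calving, although on entire gene counts SNEB 1 wkpp library 1 (3203) was just above the lowest of them (3189), and MNEB at 1 wkpp had the lowest mean, 89.96 ± 10.04 (SD, n = 3). The groups after calving followed in the order SNEB 1 wkpp, SNEB 16 wkpp, MNEB 16 wkpp and MNEB 1 wkpp by their arithmetic means. Each neighbour in that order overlapped with the next. On the log scale of the fits the first 2 stood the other way, with -0.48 (SE 1.16) for SNEB 1 over SNEB 16 wkpp. In bulk tissue, fewer cells of a type and less RNA per cell cannot be told apart.

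The SNEB libraries were not alike for TF. Library 1 at 1 wkpp, at 3025, was close to the level before calving, whereas the other 2 were at 204 and 169.8, and at 16 wkpp library 3 stood above libraries 1 and 2. Over the 15 libraries, the SD of the log2 level of TF was 2.33, against a median of 0.42 over 8017 genes with a mean normalized exon count of at least 100. Only 10 of those genes had a larger SD. This SD takes in the differences between the groups as well as those within SNEB. TF was listed with earlier results of these data known, so its rank is a description and supports nothing.

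**Figure D1:**
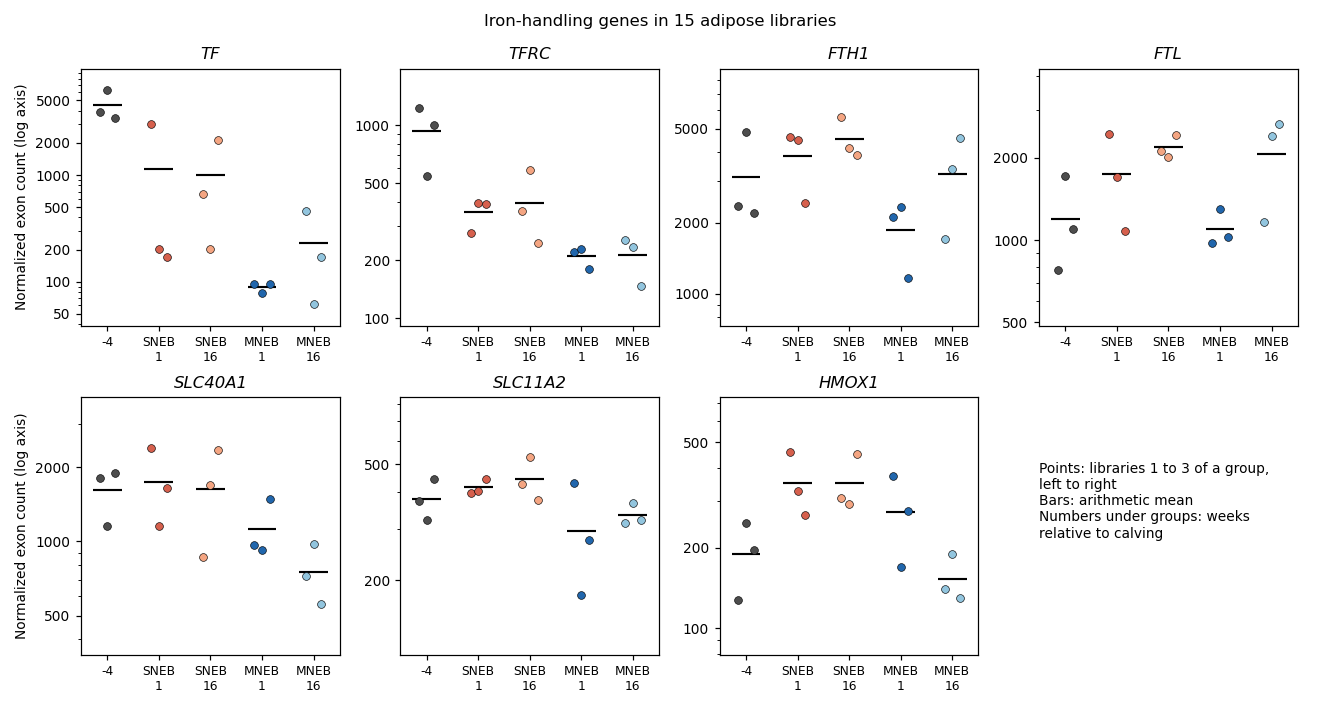
Normalized exon count (log axis) of the 7 iron-handling genes in 15 libraries, with 1 point per library, the groups on the horizontal axis and a bar at the mean of each group. The 3 points of TF at -4 wkpp lie between 3445 and 6226, above all libraries after calving, and SNEB at 1 wkpp splits into 1 library at 3025 and a pair near 200.

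TFRC, the receptor that brings transferrin into the cell, also had its highest mean at -4 wkpp. Its normalized exon count was 1233, 549 and 1011 at -4 wkpp, 276, 396 and 393 in SNEB at 1 wkpp, and 359, 588 and 244 in SNEB at 16 wkpp. In MNEB it was 221, 229.7 and 180.1 at 1 wkpp, and 255, 234 and 146 at 16 wkpp. Every library at -4 wkpp was above those of both groups at 1 wkpp, but SNEB 16 wkpp library 2 reached the lowest of them. TFRC did not have the split of TF within SNEB at 1 wkpp. There the library with the highest TF had the lowest TFRC. Over the 15 libraries the log2 levels of TFRC and TF had a Pearson correlation of 0.61, which is a description over libraries that share groups and depth.

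The ferritin chains had another order. FTH1 was at 2350.3, 4822 and 2199.8 normalized exon counts at -4 wkpp, 4623, 4473 and 2421 in SNEB at 1 wkpp, and 5607, 4139 and 3855 in SNEB at 16 wkpp. In MNEB it was at 2106, 2329 and 1173 at 1 wkpp, and 1706.5, 3383 and 4544 at 16 wkpp. The lowest group was MNEB at 1 wkpp, whose libraries lay below all those of SNEB at both times. FTL was at 778, 1710 and 1096 at -4 wkpp and between 977 and 1300 in MNEB at 1 wkpp. It lay between 1077 and 2437 in SNEB at 1 wkpp, between 2018 and 2421 in SNEB at 16 wkpp, and between 1161 and 2651 in MNEB at 16 wkpp. For FTL, all neighbouring groups overlapped. Ferritin genes have many near-identical copies in mammalian genomes. Reads that align to several copies may make both counts uncertain, which was not tested.

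Ferroportin (SLC40A1), the only known exporter of iron from cells, had its lowest mean in MNEB at 16 wkpp, with 721, 972 and 555 normalized exon counts. In SNEB at 16 wkpp it was at 861, 1690.1 and 2338, so that library 1 of SNEB lay among the MNEB libraries. The other groups lay between 921 and 2397. SLC11A2 varied the least of the 7 genes: its normalized exon count lay between 178 and 528, and all neighbouring groups overlapped. Its lowest value was MNEB 1 wkpp library 2, while library 1 of the same group was at 429.6.

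HMOX1, which breaks down haem, was at 127, 247 and 197 normalized exon counts at -4 wkpp and at 459, 328 and 265 in SNEB at 1 wkpp. It was at 307, 293 and 450.3 in SNEB at 16 wkpp, at 372, 170.2 and 276 in MNEB at 1 wkpp, and at 139.8, 190.2 and 129.99 in MNEB at 16 wkpp. The SNEB libraries at 16 wkpp were thus all above the MNEB libraries at that time, and those of SNEB at 1 wkpp were all above those at -4 wkpp. HMOX1 was the gene among the 7 that moved most closely with macrophage markers, with a Pearson correlation of 0.77 between its log2 level and the log2 sum of 9 markers over 15 libraries. That sum lay between 9249 and 16933 at -4 wkpp, 11795 and 25932 in SNEB at 1 wkpp, 22127 and 28070 in SNEB at 16 wkpp, 2643 and 9859 in MNEB at 1 wkpp, and 2782 and 3766 in MNEB at 16 wkpp. No macrophage marker was near 0 in any group, and its part in HMOX1 was not tested.

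Markers of liver and blood were also measured. The sum of 6 liver markers lay between 169 and 219 normalized exon counts at -4 wkpp, 350.3 and 554 in SNEB at 1 wkpp, 155 and 319 in SNEB at 16 wkpp, 254 and 579.8 in MNEB at 1 wkpp, and 162 and 291 in MNEB at 16 wkpp. APOA1 made up 80.02% of the counts of these markers, and ALB was between 0 and 29.4 in all libraries. HBB, a chain of haemoglobin, was between 9.73 and 283. The sum of 7 erythrocyte markers lay between 39.1 and 299.8 at -4 wkpp, 16.2 and 49.0 in SNEB at 1 wkpp, 14.7 and 19.4 in SNEB at 16 wkpp, 18.8 and 357 in MNEB at 1 wkpp, and 24.4 and 83.9 in MNEB at 16 wkpp. The part of either tissue in the levels of TF and HMOX1 was not tested.

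The groups were set against each other in 6 comparisons, each on its 6 libraries with limma-voom, once on exon reads and once on entire gene reads. A gene was called when its adjusted p was below 0.01 in both with the same sign. Log2 fold changes are the first group over the second, with their SE. Comparisons that have a group in common share its libraries, so their values are not independent.

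Between -4 wkpp and MNEB at 1 wkpp, the question was how adipose tissue changed over calving under a moderate deficit. TF was higher before calving by a log2 fold change of 5.57 (SE 0.36, n = 3 per group) on exon reads, a 47.4-fold difference, and by 4.92 (SE 0.51) on entire gene reads. TFRC was higher by 2.05 (SE 0.34) on exon reads and 1.43 (SE 0.30) on entire gene reads. FTH1, SLC40A1 and SLC11A2 had log2 fold changes of 0.71, 0.55 and 0.35, FTL of 0.06 and HMOX1 of -0.58, and these 5 genes overlapped between the groups on exon reads. On entire gene reads SLC40A1 also had no overlap (0.68, SE 0.26), which makes 3 of 7 members against 38.3% of the genes. TF was the 1 member called of 7, in a comparison in which 1.85% of the genes tested were called, and TF and TFRC were the 2 members past the threshold on exon reads alone, as were 16.6% of the genes. The same 2 had no overlap between the groups on exon reads, as had 46.9% of the genes tested. The list was selected on this contrast, so nothing is read from these counts. In the fit of all 15 libraries TF was not called, with a log2 fold change of 5.56 (SE 1.47), and TFRC was, as were 1082 genes in all. Leaving out any 1 of the 6 libraries ended the call of TF, with log2 fold changes between 5.30 and 5.75, while between 1 and 5 genes in all were called without 5 of the libraries and 207 without MNEB 1 wkpp library 1.

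Between -4 wkpp and SNEB at 1 wkpp, the same interval under a severe deficit, TF had a log2 fold change of 3.19 (SE 0.96) on exon reads and 3.20 (SE 0.94) on entire gene reads. TFRC had 1.33 (SE 0.31) and 1.06 (SE 0.26), and HMOX1, which was lower before calving, -0.91 (SE 0.29) and -0.90 (SE 0.35). Values of FTH1, FTL, SLC40A1 and SLC11A2 lay between -0.54 and -0.06. None of the 7 genes was called, as against 0.0378% of the genes tested, and 3 of 7 (TF, TFRC and HMOX1) had no overlap between the groups on exon reads, as had 19.8% of the genes. On entire gene reads TF and HMOX1 overlapped and TFRC did not, as was the case for 16.3% of the genes. Without SNEB 1 wkpp library 1, which stood apart for TF, the log2 fold change of TF was 4.53 (SE 0.28) and TF was called, as were 86 genes in all. No gene was called without any 1 of the other 5 libraries. It was 2.60 (SE 1.04) without library 2 and 2.47 (SE 0.94) without library 3 of the same group, with no call.

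**Figure D2:**
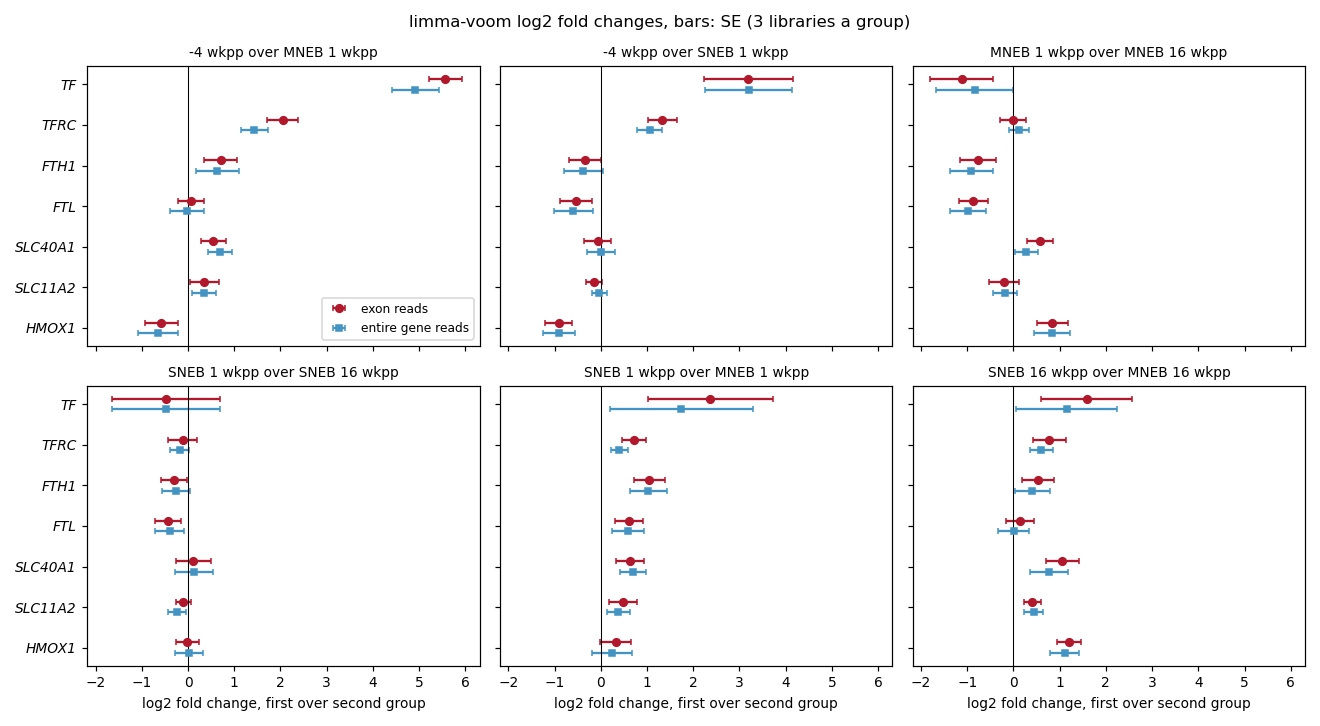
Log2 fold changes of the 7 genes in the 6 comparisons on exon reads (circles) and entire gene reads (squares), with bars for the SE over 3 libraries per group. TF and TFRC lie to the right in both comparisons with -4 wkpp, at 5.57 and 2.05 against MNEB, and the SE of TF is widest where SNEB libraries enter.

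From 1 to 16 wkpp, the period in which the balance recovered, no gene at all was called in either group of cows. In MNEB, 0% of the 9862 genes tested were called by limma-voom and by limma-trend, while 789 genes had an unadjusted p below 0.05 on exon and on entire gene reads, in 1 direction. TF had a log2 fold change of -1.12 (SE 0.68), FTL of -0.86 (SE 0.32), FTH1 of -0.77 (SE 0.39) and HMOX1 of 0.84 (SE 0.33), 1 over 16 wkpp. None of the 7 members had groups without overlap, against 20.1% of the genes on exon reads and 21.2% on entire gene reads. Without MNEB 16 wkpp library 1, the value of TF was -0.18 (SE 0.47), and without library 2 it was -1.72 (SE 0.49).

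In SNEB, 0% of the 10514 genes tested were called by limma-voom and by limma-trend, and 477 genes had an unadjusted p below 0.05 on both kinds of reads, in 1 direction. The 7 members had log2 fold changes between -0.48 and 0.12, and all their groups overlapped, against 12.1% of the genes without overlap on exon reads and 11.6% on entire gene reads. The SE of TF was 1.16, and its sign changed when SNEB 16 wkpp library 3 was left out (0.36, SE 1.22), as it did without SNEB 1 wkpp library 2 (0.11) or library 3 (0.25). It was -1.82 (SE 0.90) without SNEB 1 wkpp library 1 and -1.35 (SE 1.19) without SNEB 16 wkpp library 2.

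Between SNEB and MNEB at 1 wkpp, the severities were compared at the deepest deficit. All 7 members had positive log2 fold changes, from 0.32 for HMOX1 to 2.37 for TF (SE 1.35), and the median of all genes was 0.08. The members were listed with earlier results of these data known, so nothing is read from the shared sign. FTH1 had 1.05 (SE 0.34) and TFRC 0.72 (SE 0.26). The groups of TF, TFRC and FTH1 did not overlap on exon reads, as was the case for 39.5% of the genes, but TF and FTH1 overlapped on entire gene reads, on which 32.2% of the genes did not. No gene was called by limma-voom (0%) or by limma-trend, and 1918 of 10343 genes had an unadjusted p below 0.05 on both kinds of reads, in 1 direction. On exon reads alone 210 genes (2.03%) passed, the fit of all 15 libraries called 336, and 356 were called without MNEB 1 wkpp library 1, but none without any 1 of the other 5 libraries. Without SNEB 1 wkpp library 1, TF had a log2 fold change of 1.03 (SE 0.30), without library 2 of 2.97 (SE 1.28) and without library 3 of 3.10 (SE 1.31).

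At 16 wkpp, 3.76% of the genes, 386 in all, were called between SNEB and MNEB, and none of the 7 members was. Between 36 and 128 genes were called without 1 library, the fewest without MNEB 16 wkpp library 3. HMOX1 had a log2 fold change of 1.20 (SE 0.26) on exon reads and 1.11 (SE 0.32) on entire gene reads. SLC40A1 had 1.06 (SE 0.35), TF 1.59 (SE 0.99) and TFRC 0.78 (SE 0.37), whereas FTL had 0.13 (SE 0.30). The value of TF was 0.77 (SE 0.73) without SNEB 16 wkpp library 3 and 1.01 (SE 0.99) without MNEB 16 wkpp library 2. It was 2.48 (SE 0.74) without SNEB 16 wkpp library 2 and 2.68 (SE 1.52) without MNEB 16 wkpp library 1. The groups of HMOX1 and SLC11A2 did not overlap on exon reads, and neither did those of 43.8% of the genes. On entire gene reads SLC11A2 overlapped, whereas HMOX1 and TFRC did not, 2 of 7 members against 38.9% of the genes.

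Reads outside exons stand for introns and thus in part for unspliced RNA. Their share of the entire gene reads differed between the 7 genes: it was at most 3.56% for FTH1 and 1.75% for FTL, a median of 8.91% for TF and 13.8% for HMOX1, and a median of 33.7% for SLC40A1, 43.0% for TFRC and 43.9% for SLC11A2. For the median gene of a library it lay between 31.5 and 52.7%. For TFRC the share was between 24.02 and 33.6% at -4 wkpp and between 30.03 and 62.3% after calving, and the ranges overlapped.

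For TF the share was between 5.28 and 11.9% at -4 wkpp but 65.5 and 67.1% in MNEB 1 wkpp libraries 2 and 3. Library 1 of that group, the deepest of the 3, was at 8.91%, within the range at -4 wkpp. The shares of libraries 2 and 3 rest on 29 and 26 exon reads of 84 and 79 entire gene reads. In exon reads alone, TF had 92, 29 and 26 reads in this group, so its level there has a wide counting error. The fold change of TF between -4 wkpp and MNEB at 1 wkpp was smaller on entire gene reads than on exon reads.

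**Figure D3:**
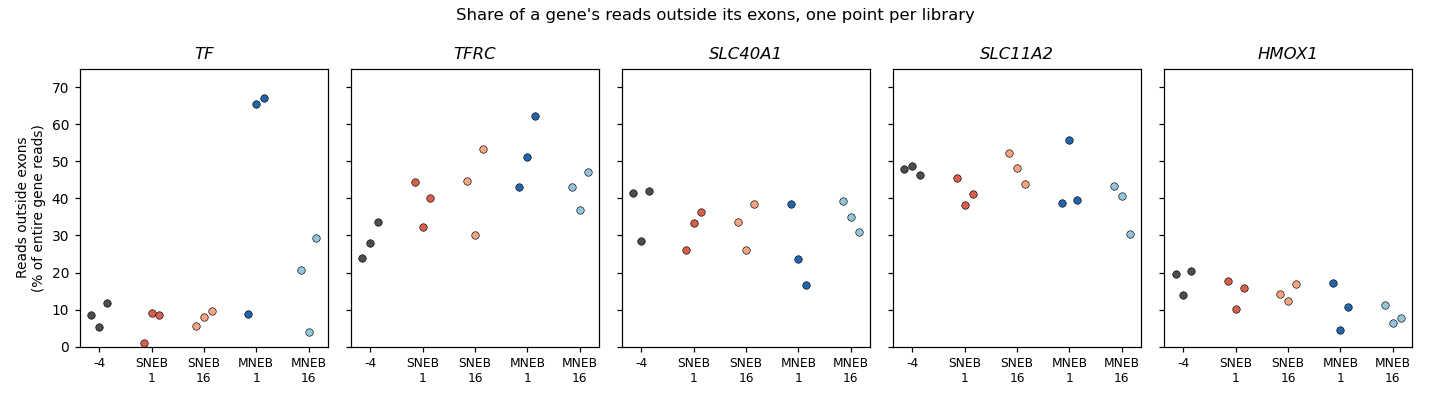
Share of the entire gene reads that lay outside exons (percent) for 5 of the genes, with 1 point per library. TF is below 12% in all but 4 libraries, and MNEB 1 wkpp libraries 2 and 3 stand out at 65.5 and 67.1%.

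The genes whose levels followed TF most closely over the 15 libraries were taken from 8017 genes by the Pearson correlation of log2 normalized exon counts. They were CD99L2 (0.96), LPL (0.96), IGFBP4 (0.95), LGALS3BP (0.95) and SPARC (0.95). LPL is the lipase that releases fatty acids from circulating lipoproteins, and SPARC is a protein of the extracellular matrix. LPL was at 24248, 12649.9 and 24525 normalized exon counts at -4 wkpp, 6182, 1178 and 1299 in SNEB at 1 wkpp, and 2749, 2256 and 8100.3 in SNEB at 16 wkpp. The same libraries were high for LPL as for TF, namely SNEB 1 wkpp library 1 and SNEB 16 wkpp library 3. SPARC was at 64437 in the former and 90083 in the latter, against 14743 to 27970.3 in the other 4 SNEB libraries. LPL and SPARC were picked for their likeness to TF, so their rank in these libraries follows from that choice.

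Among the 12 libraries after calving the correlations with TF were between 0.90 and 0.96. In the 6 SNEB libraries they were between 0.91 and 0.99, and in the 6 MNEB libraries between 0.35 (SPARC) and 0.94 (CD99L2). These libraries share cows, depth and cell makeup, and the values are descriptions. Of the 10 marker lists, the correlation of TF was 0.84 with the sum of 3 mast cell markers, 0.68 with fibroblast, 0.52 with macrophage, 0.40 with adipocyte, -0.55 with endothelium and -0.65 with skeletal muscle markers, nearly all TNNT3, and between -0.23 and 0.12 with the other 4. KIT made up 73.6% of the counts of the mast cell markers and DCN 75.5% of those of the fibroblast markers. The mast cell sum lay between 247 and 515 in MNEB and between 1132 and 4427 in the other libraries. The part of these cells in the level of TF was not tested.

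**Figure D4:**
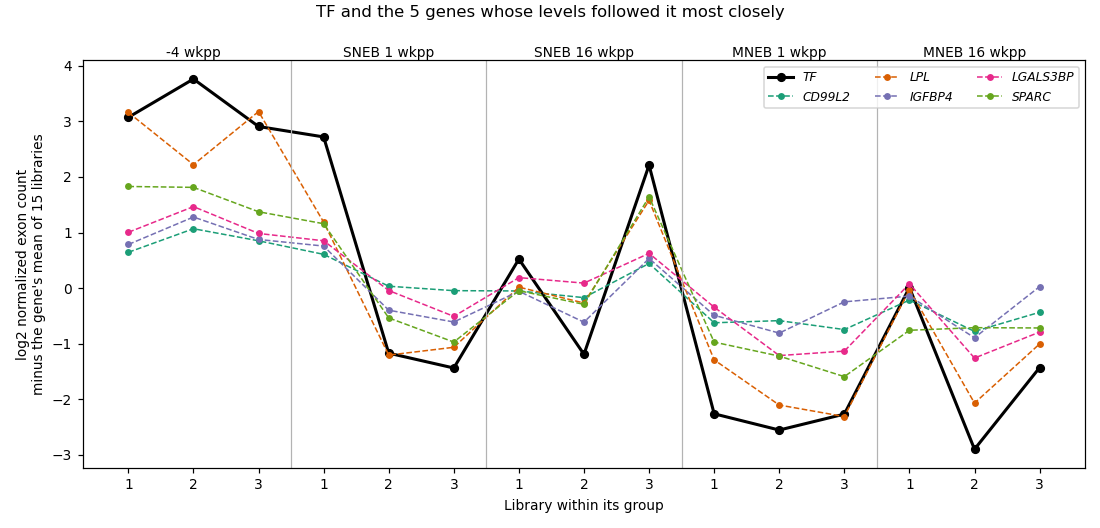
Log2 normalized exon count minus the mean of the gene over 15 libraries for TF (solid line) and the 5 genes with the highest correlation to it, by library and group. All 6 lines are high at -4 wkpp and at SNEB 1 wkpp library 1 and SNEB 16 wkpp library 3, and TF has the widest swings.

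A wider list of 53 genes of iron handling, written with the results of the 7 genes known, had 46 members in the tables. LRP1, LCN2, HEPH, TMPRSS6, BMP6, FAM132B and BACH1 were not analysed here. Between 39 and 41 of the genes had enough reads for the test in a comparison. Of 41 genes tested between -4 wkpp and MNEB at 1 wkpp, 1 was called, higher at -4 wkpp, against 1.85% of all genes, and the median log2 fold change of the list was 0.41 and that of all genes 0.06. Between SNEB and MNEB at 16 wkpp, 2 of 40 were called, both higher in SNEB, against 3.76% of all genes, with a median of 0.46 against 0.04. No gene of the list was called in the other 4 comparisons. There, an unadjusted p below 0.05 on both kinds of reads was found for 5 of 41 genes against 1020 of all 10582 genes (-4 wkpp and SNEB 1 wkpp) and for 3 of 39 against 789 of 9862 (MNEB 1 and 16 wkpp). It was found for 2 of 40 against 477 of 10514 (SNEB 1 and 16 wkpp) and for 11 of 39 against 1918 of 10343 (SNEB and MNEB 1 wkpp). Limma-trend called 0 genes of the list in these 4.

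CYBRD1, a membrane reductase that turns ferric into ferrous iron, was called in both. Its normalized exon count was 2222, 1727 and 1618 at -4 wkpp, between 1411 and 2072 in SNEB at 1 wkpp, and between 1920.2 and 2156 in SNEB at 16 wkpp. In MNEB it was between 329.5 and 415 at 1 wkpp and between 535 and 658 at 16 wkpp. The MNEB libraries thus lay below all others. The log2 fold change was 2.31 (SE 0.23) between -4 wkpp and MNEB at 1 wkpp (limma-voom with Benjamini-Hochberg adjustment, adjusted p 0.00015 on exon reads and 0.0091 on entire gene reads). It was 1.84 (SE 0.17) between SNEB and MNEB at 16 wkpp (limma-voom, adjusted p 0.00054 and 0.0061). Leaving out any library ended both calls, through the adjusted p on entire gene reads (0.014 to 0.059 and 0.015 to 0.021), with log2 fold changes on exon reads between 2.17 and 2.41 and between 1.77 and 1.93. With no filter on low counts the call between -4 wkpp and MNEB at 1 wkpp was also lost (2.31, limma-voom adjusted p 0.013 on entire gene reads).

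CD163, the haemoglobin-haptoglobin receptor of macrophages, was called between SNEB and MNEB at 16 wkpp. It was at 6769, 4991 and 4117 normalized exon counts in SNEB and at 463, 640.05 and 509 in MNEB, with a log2 fold change of 3.30 (SE 0.23; limma-voom, adjusted p 0.00028 on exon reads and 0.0014 on entire gene reads). The call held without any 1 of the 6 libraries, with log2 fold changes between 3.11 and 3.46. CD163 is also a macrophage marker, and the other macrophage markers C1QA (286.5 to 769 in MNEB and 5144 to 7542 in SNEB) and CSF1R (984 to 1392 and 4167 to 5375) were lower in MNEB as well. At -4 wkpp CD163 was between 1509.5 and 1883.

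On exon reads alone, 7 of 41 genes passed between -4 wkpp and MNEB at 1 wkpp, near the 16.6% of all genes: CYBRD1, SCARA5, STEAP3, HP, FDX1, SLC25A37 and SLC25A28. SCARA5, a ferritin receptor, was at 5207 ± 662 (SD, n = 3) at -4 wkpp and 2399 ± 241 in MNEB at 1 wkpp. Its log2 fold change was 1.13 (SE 0.21), past the threshold on exon reads (limma-voom, adjusted p 0.0027) but not on entire gene reads (0.043). HP, which binds free haemoglobin, was between 234 and 319 normalized exon counts at -4 wkpp. It was low in MNEB at 1 wkpp (45.9, 5.40 and 62.5) and between 168 and 1079 in SNEB at 1 wkpp. Its log2 fold change between -4 wkpp and MNEB at 1 wkpp was 3.17 (SE 0.60, limma-voom adjusted p 0.0034 on exon reads and 0.061 on entire gene reads). STEAP3, an endosomal reductase, had 1.25 (SE 0.29; limma-voom, adjusted p 0.0089 and 0.18), and FDX1, a mitochondrial ferredoxin, 1.56 (SE 0.29; limma-voom, adjusted p 0.0032 and 0.04).

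Both mitochondrial iron importers had the opposite sign between -4 wkpp and MNEB at 1 wkpp. SLC25A37 was at 600.2, 566 and 715 normalized exon counts at -4 wkpp and at 1291, 1275 and 1231 in MNEB at 1 wkpp, with a log2 fold change of -1.01 (SE 0.19; limma-voom, adjusted p 0.0033 on exon reads and 0.022 on entire gene reads). SLC25A28 was at 345, 470.3 and 478 at -4 wkpp and at 1050, 1289 and 1349 in MNEB at 1 wkpp, with -1.51 (SE 0.22; limma-voom, adjusted p 0.00085 and 0.019). The exon counts of the groups did not overlap for either gene, as was the case for 46.9% of all genes tested. Of the 41 genes of the list tested, 20 had no overlap, so nothing is read from its absence for the importers. Neither importer was called on both kinds of reads.

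Among the regulators, ACO1, the iron regulatory protein that also acts as an aconitase, was at 1837 ± 213 (SD, n = 3) normalized exon counts at -4 wkpp, 2210.2 ± 239 in SNEB at 1 wkpp and 1749.9 ± 65.7 in SNEB at 16 wkpp. In MNEB it was at 1004 ± 284 and 1048 ± 175. NCOA4, the receptor that brings ferritin to lysosomes, was at 1628 ± 60.9, 1857 ± 223 and 1883 ± 480.3 in the same first 3 groups and at 993 ± 241 and 1004 ± 259 in MNEB. Both had lower means in MNEB than in the other groups, and neither was called in any comparison. HIF1A, a subunit of the hypoxia-inducible factors, was at 2499, 2109 and 2064 at -4 wkpp, between 2515 and 4011 in SNEB at both times, and between 761 and 1951 in MNEB at both times, so that the MNEB libraries were the lowest, again with no call. Other abundant genes of the list (EPAS1 and FBXL5 among the regulators, PCBP1 and PCBP2 among the iron chaperones, ABCB6, ALAS1 and BLVRB of haem metabolism, FLVCR1 of export, and EXOC6, SNX3 and MCOLN1 of vesicles) were not called in any comparison. HAMP, the hormone hepcidin, had at most 8.11 normalized exon counts in any library.

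**Figure D5:**
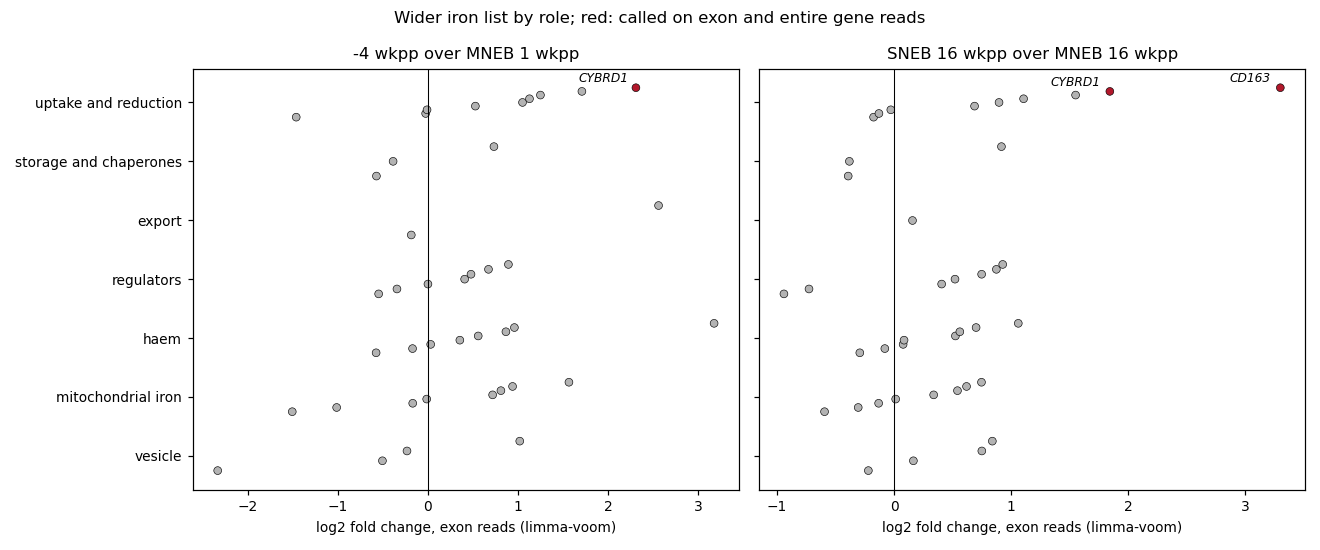
Log2 fold changes on exon reads of the tested genes of the wider iron list by role, between -4 wkpp and MNEB 1 wkpp (left) and between SNEB 16 wkpp and MNEB 16 wkpp (right), with 1 point per gene. Red points are the genes called, CYBRD1 in both panels and CD163 in the right one.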

How the data were processed

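Per the labels and the study's methods, total RNA of 15 samples was depleted of ribosomal RNA and sequenced from stranded libraries. The submitters' processing notes name bcl2fastq 2.15.0, Cutadapt 1.3, TopHat2, the bosTau8 genome, HTSeq and DESeq2. The authors counted reads on exons and on entire genes and deposited 6 tables, one per comparison, of means over 6 libraries of counts divided by DESeq2 size factors. The fold changes, test scores and p-values of the authors in the same tables were not used. No column belonged to samples of other series (0).

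No deposited column holds counts of a library. Each mean is a sum of whole reads times fixed weights, so the reads of each library were solved from the 12 columns of means by lattice reduction. For exon reads 13979 of 13988 entries and for entire gene reads 13978 were resolved, and the solved reads returned each deposited mean within 6.4e-15 of its value. The 4 genes left out were COL1A1, COL1A2, COL3A1 and RN7SL1. Size factors computed from the solved reads differed by at most 0.08% from those in the tables. The method was tested on made-up reads before use. Which labelled sample a library is within its group is not known.

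The tests used limma 3.58.1 (voom, R 4.3.3) on genes with a mean of at least 10 reads, with Benjamini-Hochberg adjustment over all genes. The 7 genes and the wider list were chosen with earlier results of these data known. Named genes were all members found, the list's called genes and up to 3 abundant ones per role, markers, and the 5 genes most like TF. Not every gene this rule selects is reported here. Other genes of the wider list are named after their values were seen (STEAP3, HP, FDX1, ACO1 and HAMP). Gene positions and sequences were not used, since the annotation at hand is of another assembly. Other computations used Python 3.11.15, numpy 2.4.6, pandas 2.3.3, gmpy2 2.3.1 and matplotlib 3.10.9.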

Additional observations from a re-analysis of the deposited data

Results flagged for a closer look

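The spike-in RNAs are outside the gene comparisons and no library lacks them, so their signal is given here. The 87 of 92 spike-in entries resolved in the exon analysis made up a median of 19.2% of the exon reads in the 6 MNEB libraries and 1.26% in the 9 others. Groups of 3 libraries are too small for a check of single outlying libraries.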

How the results depend on the processing

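Between -4 wkpp and MNEB 1 wkpp, the members called went from 1 to 2 on exon reads alone and with adjusted p below 0.05, adding TFRC. They went to 0 without any 1 library (0 in all 6). Of all genes, 192 were called in the main fit, 1728 on exon reads alone and 1099 with adjusted p below 0.05. Without 1 library, 1 to 207 of all genes were called. In the fit of all 15 libraries the 1 member called was TFRC and not TF, in a fit that called 1082 genes in all. Between -4 wkpp and SNEB 1 wkpp the count was 0 to 1 without 1 library, against 0 to 86 of all genes. TF was called without SNEB 1 wkpp library 1. The other comparisons had 0 members called under all alternatives.

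For the wider iron list the alternatives beyond exon reads alone were chosen after seeing the data. Of the list, 7 genes were called between -4 wkpp and MNEB 1 wkpp on exon reads alone, as were 16.6% of all genes. With adjusted p below 0.05 the list had 5 against 1099 of all genes, and with scaling to total reads 3 against 329. With no filter on low counts it had 0 against 69, and in the fit of all 15 libraries 4 against 1082. Without 1 library it had 0, against 1 to 207 of all genes. In the comparison of -4 wkpp and SNEB 1 wkpp, 1 was called on exon reads alone and 1 with adjusted p below 0.05. On exon reads alone 52 of all 10582 genes were called, and at most 86 over the alternatives. Between SNEB and MNEB at 1 wkpp the counts were 2 on exon reads alone, 1 with adjusted p below 0.05 and 2 in the fit of all 15 libraries. They were 0 to 4 without 1 library, the 4 arising without MNEB 1 wkpp library 1. Of all genes, 210 were called on exon reads alone and 0 to 356 without 1 library. Between SNEB and MNEB at 16 wkpp, 7 were called with adjusted p below 0.05 and 1 without 1 library, CD163. Of all genes, up to 1344 were called over the alternatives and 36 to 128 without 1 library. The causes were not tested.

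Of all genes, 192 were called between -4 wkpp and MNEB 1 wkpp (1 to 1728 over the alternatives), 4 between -4 wkpp and SNEB 1 wkpp (0 to 86), 386 between SNEB and MNEB at 16 wkpp (36 to 1344), and 0 between SNEB and MNEB at 1 wkpp (0 to 356). Scaling to total reads shifted the median log2 fold change of all genes by -0.14 between -4 wkpp and MNEB 1 wkpp and by -0.11 between -4 wkpp and SNEB 1 wkpp. In the former, the share of called genes that were higher at -4 wkpp was 55.7% in the main fit and 37.7% with scaling to total reads. The fold changes of the members moved by less than 1 SD between libraries, derived from the SE of each main fit, in 455 of 462 alternatives, and none that was called reversed. The group means of the members moved by less than their SD in 54 of 70 alternatives, and the 16 that moved by more were all on entire gene reads, which also take introns. The alternative of a 1.5-fold limit was not run, as it was meant for libraries that could not be resolved. No paired analysis was possible because the libraries carry no number that ties the groups. Depth limits TF in MNEB, where it had 26 to 92 exon reads at 1 wkpp and 473, 24 and 63 at 16 wkpp.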
